A study of Drosophila melanogaster with 12 samples.

Results

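The 2 arrays titled Mock at 2 h give a picture of Kc167 cells that had received no Unpaired (UPD) ligand. Kc167 cells are a Drosophila melanogaster line, derived from embryos and often used as a model of blood cells. The cells were kept for 30 min in Mock conditioned medium, the medium was replaced by fresh Schneider's medium, and total RNA was taken 2 h after the conditioned medium was first added. Both biological replicates of the group, chosen by their titles, are described here, out of 12 arrays in the series. The other arrays, of cells given UPD conditioned medium and of Mock cells at later times, are not compared here. The pair was picked as the Mock group with the closest replicates, so the agreement between its arrays is a description of the choice. The labels do not say which cells conditioned the Mock medium, and untouched cells are not part of the group. With 1 group, no test was made.

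Blood cells of the fly larva are grouped by what they do. Plasmatocytes engulf debris and microbes and secrete matrix, crystal cells carry the prophenol oxidases of melanisation, and lamellocytes wrap objects that are too large to engulf. The GATA factor Serpent is required for blood cell fate in the embryo, and the Toll, Imd and JAK/STAT pathways shape the immune responses of these cells.

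The level of a probe set is its deposited log2 value, given below for replicate 1 and then replicate 2. The values of 18769 probe sets, without the array's controls, were ranked by the mean of both arrays. They fell into a low and a high hump. The fullest bin of the low hump, from -1 to 0, held 1651 probe sets, the fullest bin of the high hump, from 8 to 9, held 1662, and the emptiest bin between them, from 4 to 5, held 584. The top 10% of probe sets starts at 9.29, where the probe set just inside has 9.2896 and the one just outside 9.2884. Below it, probe sets from 5 up to that limit are called bright intermediate, those above 1 and below 5 dim intermediate, and those at or below 1 near or below 0. The line at 5 was set after the dip had been seen.

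A named gene is represented by its brightest probe set among those with 1 listed gene, which gives 11982 genes. Of these, 1514 (12.6%) lie in the top 10% of probe sets and 3855 (32.2%) near or below 0, while 5880 (49.1%) lie at 5 or above. These shares are the background for the gene lists. With the top 10% taken over genes in place of probe sets, its limit would be 9.58, and 33 of the 248 list genes in it would leave. Probe sets differ in how strongly they bind their target and the deposited values carry no detection calls. A tier therefore places a probe set among probe sets on these arrays, and a value near or below 0 is not a call that the RNA was absent.

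**Figure D1:**
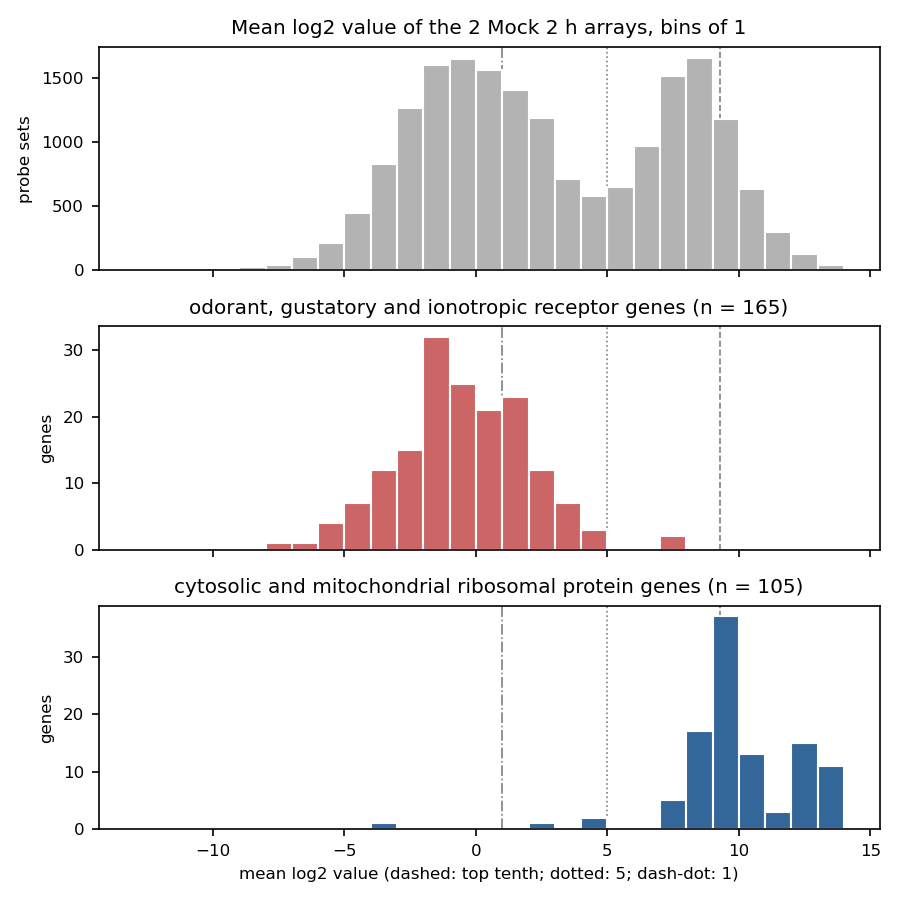
Number of probe sets or genes (y axis) by mean log2 value of both Mock 2 h arrays (x axis, bins of 1). Top, all 18769 probe sets; middle, 165 chemoreceptor genes, of which 2 lie at 5 or above; bottom, 105 ribosomal protein genes, of which 101 lie at 5 or above. Lines mark 1, 5 and the start of the top 10% at 9.29.

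The arrays agreed closely where values were high and poorly where they were low. The median SD of a probe set over both replicates was 0.087 in the top 10%, 0.065 in the bright intermediate tier, 0.47 in the dim tier and 1.17 near or below 0. Above 5 the arrays correlated with r = 0.997 over 7093 probe sets, and below 5 with r = 0.721 over 11676, where probe sets are not independent and share their labelling and scan. Ranked on each array alone, 97.7% of the top 10% and 98.2% of the bright intermediate probe sets stayed in their tier on both, against 76.7% of the dim tier and 77.0% of those near or below 0. Replicate 1 ran above replicate 2 by a median of 0.12 in the top 10%, so a shared offset is part of the SD there. The genes of the top 10% that differed most between arrays were CG6770, at 9.73 and 9.31, Tao, a kinase gene, at 9.25 and 9.62, NdufA3, a subunit gene of respiratory complex I, at 9.75 and 9.40, the calnexin gene Cnx99A, at 10.56 and 10.21, and D1, at 11.47 and 11.14.

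**Figure D2:**
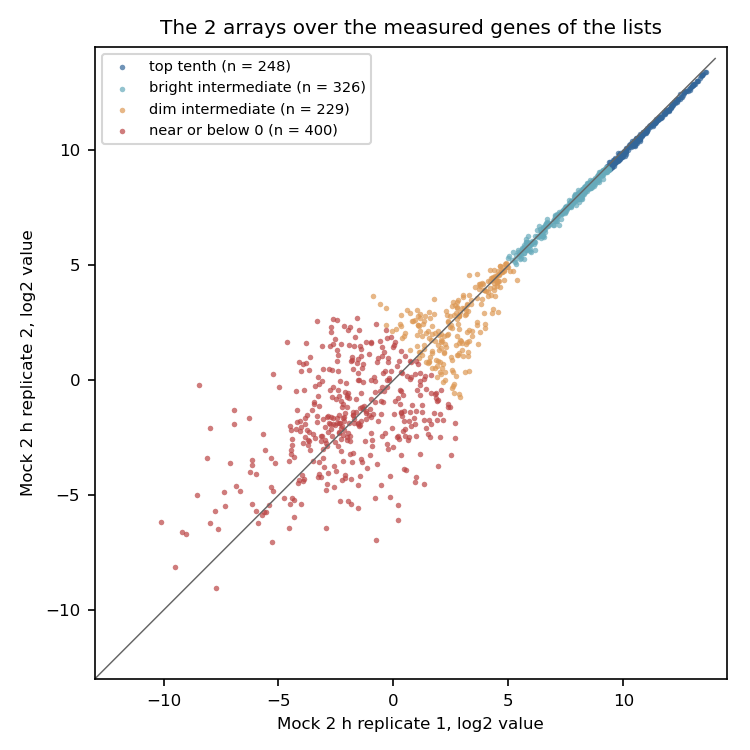
Log2 value on replicate 2 (y axis) against replicate 1 (x axis) for 1203 genes of the lists, coloured by tier, with the line of equality. The 248 genes in the top 10% and 326 in the bright intermediate tier hug the line, and the 400 genes near or below 0 scatter widely around it.

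Sensory receptor and cuticle genes lay in the low hump with few exceptions. Of 165 measured odorant, gustatory and ionotropic receptor genes, which serve smell and taste, 0 were in the top 10%, 118 were near or below 0 and 2 lay at 5 or above. These exceptions were Ir68a, at 7.35 and 7.37, and Ir76a, at 7.13 and 6.93. The 17 control probe sets named Tag ran from -3.66 to 2.12 with a median of -1.20. Of 66 cuticle protein genes 0 were in the top 10% and 44 near or below 0. As a measure of RNA quality, the 3′ control probe set of Act5C lay above its 5′ probe set by 0.65 and 0.56, that of Gapdh by 0.44 and 0.23 and that of eIF4A by 0.74 and 0.68.

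The machinery of protein synthesis filled the top of the ranking. RpLP1, a protein of the ribosomal stalk, had the highest value of any named gene, at 13.60 and 13.43. RpS18, a small subunit protein, was at 13.56 and 13.39. Among the 30 genes with the highest mean, the ribosomal protein genes RpS27A, RpL15, RpLP0, RpL41, RpLP2, RpL23, RpS20, RpS7, RpS26, RpS15, RpS28b, RpS30, RpL10Ab, RpS12, RpL39, RpL29 and RpL40 ran from 12.76 to 13.39. Of 87 listed cytosolic ribosomal protein genes 36 were measured. Of these, 30 were in the top 10%, and the median of the measured genes was 12.77. The other measured members are genes with a close copy elsewhere in the genome: RpS19b at 8.05, RpS5b at 7.78, RpS10a at 4.94, RpL37-2 at 4.92, RpS28a at 2.94 and RpL10Aa at -3.02. Near-identical copies can share probes, so the values of single copies are uncertain.

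The translation factors eIF4A, the helicase that unwinds the start of mRNAs, and eEF5 were at 13.05 and 12.87 and at 12.97 and 12.80. The elongation factor subunit eEF1gamma was at 12.65 and 12.52. Of 8 measured translation factors 7 were in the top 10%, and eEF1alpha2, a second copy of an elongation factor, was at 4.72 and 4.73. All 69 mitochondrial ribosomal protein genes lay at 5 or above, 39 of them in the top 10%, between 7.51 and 10.82. Their median was 9.34, below the limit of 9.58 that holds with ranks over genes. Under that limit several of the 39 left the top 10%, such as mRpL27 at 9.30 and mRpL15 at 9.56.

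Other genes among the 30 highest serve folding, signalling scaffolds and the cytoskeleton. Hsc70-4, the constitutive Hsp70 chaperone, was at 13.43 and 13.26. The actin-severing cofilin tsr was at 13.06 and 12.87, the immunophilin Fkbp12 at 13.06 and 12.84 and the scaffold Rack1 at 12.96 and 12.81. Nacalpha, which binds chains as they leave the ribosome, was at 13.03 and 12.83, Tctp at 13.01 and 12.84 and the disulfide isomerase ERp60 at 12.82 and 12.67. A pair of genes stood outside these groups. CG5953, a gene with no name beyond its number, was the third highest at 13.57 and 13.37, and Arc1, whose protein descends from a retrotransposon Gag and forms capsids, was at 13.14 and 12.97.

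Protein breakdown and energy supply filled the top 10% in the same way. All 12 measured core proteasome genes were in the top 10%, from 10.57 for Prosalpha4 to 12.24 for Prosbeta3. Of 18 genes of the regulatory particle 14 were in the top 10%, and the copies Rpt3R, Rpt4R, Rpn12R and Rpn13R were the others, at 9.02, 2.24, 1.25 and -1.80. All 10 ATP synthase genes were in the top 10%, led by ATPsynbeta at 12.66 and 12.54. Of 7 cytochrome oxidase genes 6 were in the top 10%, and COX4L, a second copy of a subunit, was at 6.15 and 5.66.

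Glycolysis gave 4 of 10 genes in the top 10%. The enolase gene Eno was at 11.21 and 11.09, the aldolase gene Ald1 at 10.49 and 10.39 and Gapdh1 at 10.39 and 10.34. The hexokinases split: Hex-A was at 9.09 and 8.95 and Hex-C at -3.47 and -1.05. Hex-C values lay near or below 0 on both arrays.

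Acidic compartments, which digest what phagocytes engulf, were also prominent. The cathepsin gene CtsL1 was at 12.29 and 12.19, the lysosomal membrane protein gene Lamp1 at 12.22 and 12.11 and the sterol carrier Npc2a at 12.0 and 11.76. Of 7 cathepsin and lysosomal genes 6 were in the top 10%, and Npc1a was the other, at 8.06 and 8.14. Of 15 V-ATPase genes, whose pump acidifies lysosomes, 12 were in the top 10%. Among its a subunit genes Vha100-2 was at 9.27 and 9.15, Vha100-1 at 7.93 and 8.05 and Vha100-4 at 2.06 and -0.43, whose mean was near or below 0. The ferritin chains Fer2LCH and Fer1HCH, which store iron, were at 12.09 and 11.93 and at 11.77 and 11.65, while Fer3HCH, a mitochondrial ferritin, was at 1.03 and 3.05.

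**Figure D3:**
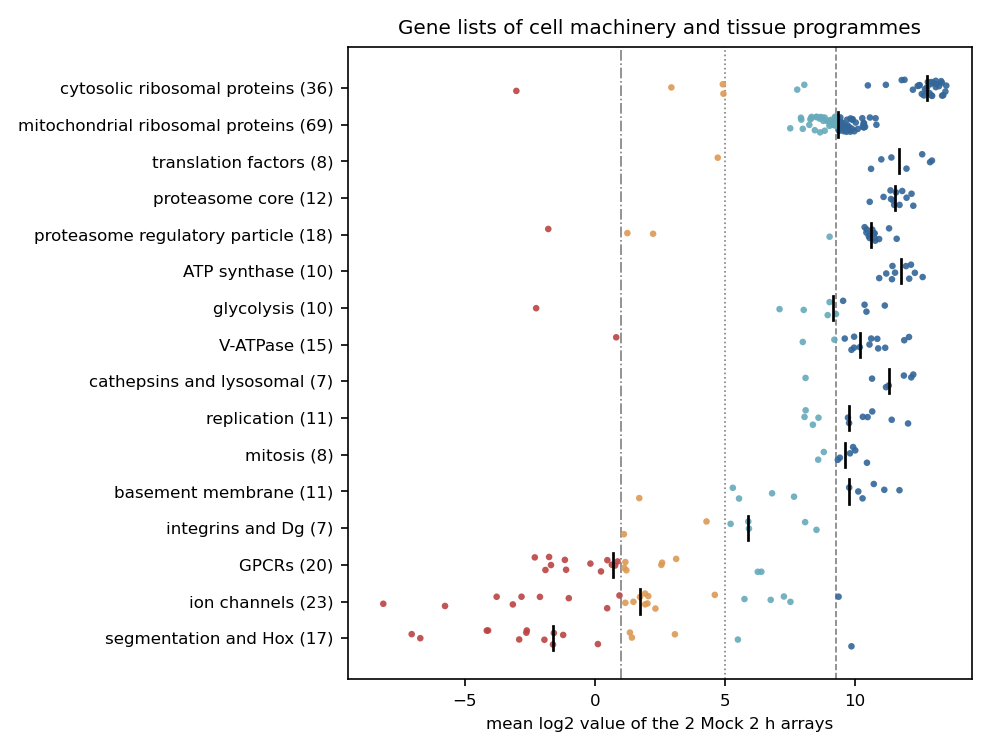
Mean log2 value of both Mock 2 h arrays (x axis) for each measured gene (points, coloured by tier as in the plot of the replicates) of 16 lists (rows, number of genes in brackets), with the list median as a bar and lines at 1, 5 and 9.29. Proteasome core and ATP synthase genes all lie right of 9.29, and 12 of 17 segmentation and Hox genes lie at or left of 1.

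Cell cycle genes were measured high throughout. Of 39 measured cell cycle genes all lay at 5 or above and 19 in the top 10%. PCNA, the sliding clamp of DNA replication, was at 12.13 and 11.95 and the ribonucleotide reductase subunit RnrL at 11.44 and 11.39. The helicase genes Mcm2, Mcm5, Mcm6 and dpa ran from 9.77 to 10.66. For mitosis, borr and Incenp of the chromosomal passenger complex were at 10.58 and 10.34 and at 10.0 and 9.85, and the spindle checkpoint gene mad2 at 10.09 and 9.93. CycB was at 10.01 and 9.90, CycE at 8.44 and 8.36 and CycD at 7.06 and 7.10. The cyclin kinases Cdk2 and Cdk4 were in the bright intermediate tier, at 7.73 and 8.18, and twe, a Cdc25 phosphatase of meiosis, was at 5.74 and 5.82. The anaphase activator fzy was at 10.12 and 10.07, but its dimmest of 3 probe sets had a mean of -0.73.

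The blood cell label was checked against defining markers. In these bulk samples, fewer cells of a type and less RNA per cell cannot be told apart. The blood factors srp and ush, a GATA factor and its cofactor, were at 9.59 and 9.56 and at 7.89 and 8.11. The clotting protein hemolectin, Hml, a plasmatocyte marker, was at 10.58 and 10.55. Both srp and Hml lay in the top 10% of probe sets on both arrays, but srp, just under 9.58 in the mean, left it when the ranks were taken over genes.

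Plasmatocyte markers were spread over all tiers. The matrix protein Tig was at 9.31 and 9.26, with a mean just below the limit, and inside the top 10% on replicate 2 alone. The engulfment receptor drpr was at 8.98 and 8.95, the peroxidasin Pxn at 7.74 and 7.58 and the scavenger receptor croquemort, crq, at 7.02 and 7.0. The phagocytic receptor eater was at 4.59 and 4.30, in the dim tier. He, which encodes the surface protein Hemese, was at 1.93 and 0.83, NimC1, the antigen used to stain plasmatocytes, at 2.54 and -0.33 and the scavenger receptor Sr-CI at -2.27 and 1.60. For He, NimC1 and Sr-CI the arrays fell on opposite sides of 1, so their tier is not settled. Of all 14 measured plasmatocyte markers 5 lay at 5 or above (35.7%, against 49.1% of all genes). Near or below 0 were 4 (28.6%, close to the 32.2% of all genes), and 7 were low when the limit was set at 2. NimC4, Sr-CIV and Sr-CIII, other engulfment and scavenger receptor genes, were at -4.71, -5.43 and -7.90, and Sr-CII and NimB4 at 2.83 and 1.17. A second probe set of Pxn had a mean of 0.08.

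Markers of crystal cells were low as a list. The prophenol oxidase genes PPO2 and PPO1 were at 2.46 and 2.33 and at -1.45 and -1.93. The Runt factor lozenge, lz, which crystal cells need, was at -2.87 and -4.52. None of 5 measured members reached 5, and the other members klu and peb had means of 4.35 and 2.31.

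Lamellocyte markers gave a mixed picture. PPO3, the prophenol oxidase of lamellocytes, was at 6.42 and 6.20, and the integrin ItgaPS4 at 4.36 and 4.22. The surface antigen atilla was at 1.0 and -4.20, values far apart. The list also holds genes that many cells use: the integrin beta chain mys at 8.08, the kinase msn at 8.06 and the filamin cher at 8.01. The thioester protein gene Tep4, also used as a marker of lymph gland precursors, was at 9.53 and 9.50, and left the top 10% with ranks over genes.

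Of 6 markers of precursors and of the lymph gland signalling centre 2 lay at 5 or above and 2 near or below 0 (33.3%, where all genes had 32.2%). The bright members were the zinc finger gene zfh1, at 8.56 and 8.70, and the receptor gene dome, at 8.07 and 8.07. With replicate 1 alone, 1 marker was near or below 0. The EBF factor collier, kn, was at 0.01 and 1.52, the Hox gene Antp at 2.05 and 0.79 and odd at 1.33 and -4.50. The glial and plasmatocyte factors gcm and gcm2 were at 0.62 and -2.60 and at -3.86 and -1.62. Of 7 blood cell transcription factor genes 2 were in the top 10%, Stat92E and srp (Stat92E alone with ranks over genes). Near or below 0 were 2, gcm and gcm2 (28.6%, close to the 32.2% of all genes). The forkhead factor jumu had a mean of 8.30 and Bap60, a chromatin remodelling subunit, 8.47. E-cadherin, shg, counted with the precursor markers, was at 4.22 and 4.02.

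**Figure D4:**
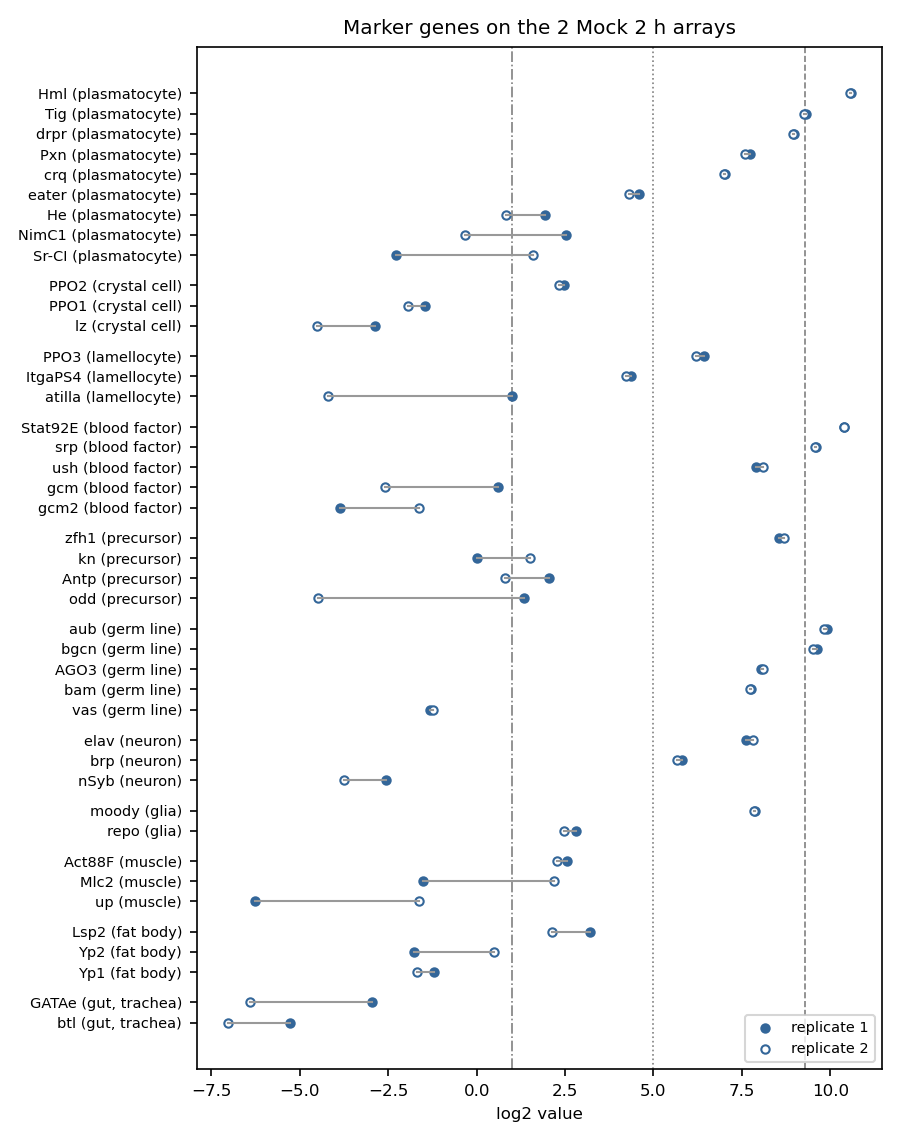
Log2 value (x axis) of marker genes (rows, with the cell class they mark) on replicate 1 (filled) and replicate 2 (open) of Mock at 2 h, joined by a line, with lines at 1, 5 and 9.29. Hml, Stat92E, srp, aub and bgcn lie in the top 10% on both arrays, and the replicates of dim markers such as atilla and odd lie far apart.

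Basement membrane genes, which plasmatocytes secrete, were high as a list. SPARC, a collagen-binding protein, was at 11.80 and 11.62. The laminin chains LanA, LanB1 and LanB2 were at 11.16 and 11.10, at 10.74 and 10.70 and at 10.32 and 10.26. Both type IV collagen chains were also in the top 10%, with Col4a1 at 10.13 and 10.12 and vkg at 9.80 and 9.76. Of 11 measured members 6 were in the top 10%. The nidogen gene Ndg was at 0.83 and 2.58, the papilin gene Ppn at 6.82 and 6.80, and the perlecan gene trol at 5.31 and 5.29, with a dimmest of 8 probe sets at -3.58.

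Of 7 adhesion receptors 0 were in the top 10%. The integrin alpha chain scb was at 8.47 and 8.57, mew at 5.82 and 6.02 and if at 0.39 and 1.84. Of 7 intracellular linkers and kinases all lay at 5 or above, with stck at 10.87 and 10.82, parvin at 9.57 and 9.49 and Vinc at 9.37 and 9.24 in the top 10%. With ranks over genes parvin and Vinc left it. The alpha chain if, which pairs with mys in muscle attachment, was dim in the mean.

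Markers of other cell types were counted from the same values, where 32.2% of all genes lay near or below 0. Of 8 measured muscle genes 0 reached 5 and 4 were near or below 0 (2 with the limit at 0), of 7 fat body genes 0 reached 5 and 4 were near or below 0, and all 6 gut genes and all 3 tracheal genes were near or below 0. The gut list also holds Vm26Aa, an egg shell gene. The muscle gene up, troponin T, was the lowest of its list, at -6.27 and -1.64. The actin gene Act79B was the highest, at 5.19 and 4.77, with a mean just below 5. In the fat body list the yolk protein Yp1 was at -1.21 and -1.68 and the highest member, Lsp2, at 3.22 and 2.12. The gut factor GATAe, the lowest of its list, was at -2.95 and -6.42, and the highest gut mean was 0.69. The tracheal receptor btl was at -5.27 and -7.04. Neuronal markers gave 2 of 9 at 5 or above, elav at 7.62 and 7.82 and brp at 5.82 and 5.65, and 3 near or below 0, among them the synaptic vesicle gene nSyb at -2.58 and -3.75. With replicate 2 alone, with the limit at 2, or with the dimmest probe set, 5 neuronal genes were near or below 0. The gene elav encodes an RNA-binding protein used as a neuronal marker, and other probe sets of brp reached down to -4.87. Of 6 glial genes 2 lay at 5 or above and 3 near or below 0, with a list median of 0.82. The gene moody, for a receptor of the blood-brain barrier, was at 7.88 and 7.86, nrv2 at 7.11 and 7.17 and the glial factor repo at 2.82 and 2.46. The low members were gcm, alrm at -2.25 and -1.18 and wrapper at -4.41 and -2.57. Epithelial genes gave 6 of 8 at 5 or above, with cora at 7.96 and Nrx-IV at 7.70 and the epithelial factor grh at 2.77 and 3.15.

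Among germ line genes both high and low values were found. The Piwi-family protein aubergine, aub, was at 9.90 and 9.81 and bgcn, a partner of Bam in the germ line stem cell lineage, at 9.62 and 9.50. AGO3 was at 8.05 and 8.11 and bam at 7.76 and 7.74. The germ line helicase vas was at -1.31 and -1.24 and osk and orb had means of 1.74 and 1.04. The ligand gene grk was at 7.34 and 7.29. Of 8 measured members 5 lay at 5 or above, where 49.1% of all genes did, and 1 near or below 0, which became 3 with the limit at 2. With ranks over genes bgcn left the top 10%.

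The piRNA pathway silences transposons and is known mainly from gonads. Of 15 measured genes 13 lay at 5 or above. The nuclear factor del was at 10.15 and 10.10 and mael at 9.61 and 9.57. The helicase armi was at 9.10 and 9.08 and the Tudor proteins vret and tej at 9.04 and 8.32. The genes cuff, zuc, squ and spn-E had means of 8.70, 8.29, 8.51 and 8.12. The founding member piwi was at 5.90 and 5.84 and krimp at 6.44 and 6.45. The chromodomain gene rhi, whose protein works with del and cuff in the ovary, was at -0.91 and -2.84. Thus rhi and vas were the 2 members near or below 0.

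Genes of RNA interference and microRNAs, the machinery behind gene knockdown in this line, were all at 5 or above in 7 of 7 measured. The gene gw, for the silencing effector GW182, was at 10.38 and 10.32. Dcr-2, which cuts long double-stranded RNA, was at 8.66 and 8.65 and its partner r2d2 at 8.03 and 7.95. Hen1, loqs, drosha and pasha had means between 6.77 and 8.60. Dcr-1, AGO1 and AGO2 were not analysed here.

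Sex determination and dosage compensation genes are given as levels only. A probe set level does not show the splice form of an RNA, so no sex is read from these values. The sex of the line and the presence of a Y chromosome were not tested. Sxl, the switch gene that is on in females, was at 7.48 and 7.29 on its brightest of 3 probe sets, the dimmest of which had a mean of 1.76. The gene msl-2, for the male-limited subunit of the complex that acts on the X chromosome, was at 3.71 and 3.98 and the other measured subunits mle, msl-1, mof and msl-3 ran from 6.04 to 7.07. Its RNAs roX1 and roX2 were not analysed here. The splicing regulator tra2 was at 9.82 and 9.71, tra at 8.19 and 7.96 and dsx at 5.58 and 5.70. All 7 measured Y-linked genes were near or below 0, from -4.34 for Ppr-Y to -0.20 for kl-2. Over all genes the share near or below 0 was 32.2%.

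By chromosome of the gene table's assembly, Release 6, 979 of 1873 X-linked genes (52.3%) lay at 5 or above. The share was 47.9% for 2L, 50.0% for 2R, 47.9% for 3L, 49.2% for 3R and 47.7% of 65 genes on chromosome 4. The share in the top 10% was 11.1% for X, against 11.8% to 14.1% on the major autosome arms.

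**Figure D5:**
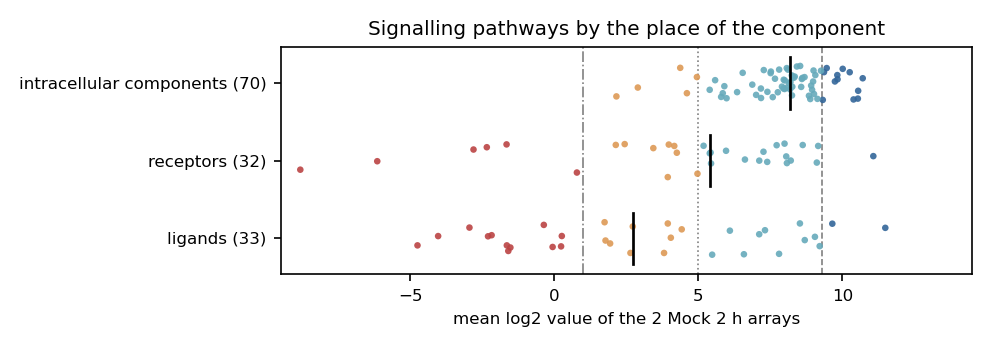
Mean log2 value of both Mock 2 h arrays (x axis) for genes of the signalling pathways by the place of their product (rows, number of genes in brackets), with the median as a bar and lines at 1, 5 and 9.29. Intracellular components centre on 8.19, receptors on 5.41 and ligands on 2.72.

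Signalling components were counted by place. Of 70 measured intracellular components 65 lay at 5 or above and 0 near or below 0. Of 32 receptors, including other receptor kinases, 18 lay at 5 or above (56.25%, against 49.1% of all genes) and 6 near or below 0 (18.75%). Of 33 ligands 12 lay at 5 or above and 12 near or below 0 (36.4%, close to the 32.2% of all genes). Pathways differed: the EGF ligands spi, grk and Krn all lay at 5 or above while Egfr was dim. The 5 intracellular genes below 5 were mam, Med, raptor, nkd and ci, at means of 4.95, 4.60, 4.37, 2.90 and 2.15.

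In the JAK/STAT pathway, a receptor bound by an Unpaired ligand activates the kinase hop and the transcription factor Stat92E. Stat92E was in the top 10%, at 10.38 and 10.39. The receptor dome was at 8.07 and 8.07, and et, a related receptor that dampens signalling, at 5.55 and 5.33. The ligands upd1 and upd2 were at -3.96 and -4.11 and at -0.45 and 0.32, both near or below 0 on both arrays. The measured inhibitors all lay in the bright intermediate tier: Ptp61F, a phosphatase, at 9.06 and 8.96, Socs44A at 8.95 and 8.94, the SUMO ligase Su(var)2-10 at 8.20 and 8.29, the repressor ken at 8.06 and 7.95 and Socs16D at 6.53 and 6.54. Cells without added ligand thus had measured levels for receptor, transcription factor and inhibitors and low values for 2 ligands. The genes hop, upd3 and Socs36E were not analysed here.

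In the Toll pathway, the processed ligand Spätzle binds Toll and frees the NF-kappaB factors Dorsal and Dif from Cactus. The ligand spz was at 9.04 and 9.05, while spz3, spz5 and spz6 had means near or below 0 and spz4 at 3.27 and 2.17. Tl was at 5.14 and 5.22 and Tollo at 7.40 and 7.38. The other measured Toll receptors were lower, with 18w at 2.31 and 1.95 and Toll-7 at -1.46 and -4.16. The adaptor tub was at 9.82 and 9.82, the kinase pll at 7.85 and 7.75 and Myd88 at 7.18 and 7.16. The inhibitor cact was in the top 10% by its brightest probe set, at 10.56 and 10.52, and left it by the mean or the dimmest of its probe sets, with dl at 5.33 and 5.46 and Dif at 5.96 and 5.73 below it in the bright intermediate tier. Of 7 extracellular recognition and protease genes 5 were near or below 0, among them psh, GNBP3 and SPE at -0.40, -2.60 and -5.76, and grass was at 8.27 and 8.13.

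The Imd pathway, which senses peptidoglycan and activates Relish, was bright in all but 1 of 17 measured members. Relish, Rel, was at 9.78 and 9.88, the IKK subunit key at 10.04 and 9.98 and Uev1A, a ubiquitin conjugation factor, at 10.76 and 10.65. The intracellular receptor PGRP-LE, which left the top 10% with ranks over genes, was at 9.60 and 9.48 and the amidase PGRP-LB at 8.99 and 8.98. The adaptor imd was at 7.0 and 6.74 and its inhibitor pirk at 8.21 and 8.31. PGRP-LA was the member below 5, at 4.65 and 4.98.

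Of the antimicrobial peptide genes, the products of these pathways, 7 were measured. DptB was at 9.08 and 8.92, AttD at 8.42 and 8.56 and CecB at 5.84 and 6.03. Drs and Mtk were dim, with Drs at 4.64 and 4.05 and Mtk at 4.35 and 3.10. Drsl5 and Def were near or below 0 in the mean, with Drsl5 at 1.88 and -1.71 and Def at -0.70 and -3.63. The peptides thus ranged from the bright intermediate tier to below 0.

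Growth factor signalling differed by receptor. Pvr, the receptor related to the vertebrate PDGF and VEGF receptors, is known for survival and migration of blood cells. Of the 32 measured pathway receptors and receptor kinases it alone lay in the top 10%, at 11.10 and 11.04. Its ligand Pvf2 was at 9.64 and 9.66, Pvf1 at 3.56 and 4.06 and Pvf3 at 2.17 and -1.71. The EGF ligand spi was the brightest of the 33 measured ligands, at 11.53 and 11.45, while the receptor Egfr was at 3.20 and 1.68. Egfr was the 1 dim member of 16 measured in its pathway, and its single probe set differed widely between arrays. The feedback inhibitor sty was at 10.59 and 10.51, aos, a secreted inhibitor, at 7.86 and 7.95 and the adaptor drk at 9.0 and 8.96. Of the FGF ligands, bnl was at 7.10 and 7.12, pyr at 1.76 and 3.52 and ths at -4.11 and 0.81. The receptors htl and btl were near or below 0, and bnl was the 1 of 5 measured members at 5 or above.

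In the insulin pathway the receptor InR was at 7.99 and 7.99, the kinase Akt at 8.24 and 8.31, S6k at 9.24 and 9.27 and foxo at 7.11 and 7.24. The 4 measured insulin-like peptides were low: Ilp8 at 3.28 and 4.59, Ilp5 at 1.94 and 1.55, Ilp7 at 1.17 and -0.66 and Ilp2 at -2.03 and -2.58. Receptor and cascade lay at 5 or above in 7 of 8 genes and the peptides in 0 of 4.

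All 5 measured BMP and activin receptors lay in the bright intermediate tier, with put at 9.19 and 9.13, sax at 9.11 and 9.11, tkv at 7.21 and 7.30, babo at 7.02 and 7.20 and wit at 5.49 and 5.30. The ligands daw and gbb were bright too, with daw at 9.22 and 9.20 and gbb at 8.74 and 8.64. The ligand dpp was dim at 3.88 and 4.20, and scw near or below 0 at -3.65 and 0.45.

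Hedgehog signal reception was split. The transducer smo was at 8.09 and 8.01 and the coreceptor ihog at 7.72 and 7.71. The receptor and target gene ptc was at 4.19 and 4.31, the ligand hh at 1.08 and 2.79 and the transcription factor ci at 3.24 and 1.07. All of ptc, hh and ci were thus in the dim tier by their means.

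For Notch signalling, N, Dl, Ser and Su(H) were not analysed here. Of 6 measured genes on the receptor and processing list 2 were in the top 10%, 1 was dim and 1 near or below 0, at -3.99. Those in the top 10% were O-fut1, which modifies the receptor, at 10.34 and 10.23, and Psn, of gamma-secretase, at 9.88 and 9.79. The corepressor H was at 8.95 and 9.04. None of 5 measured target genes of the E(spl) complex reached 5; E(spl)mbeta-HLH had the highest value, 4.37 and 4.47.

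Few Wnt genes were measured. The gene wls, whose product carries Wnt proteins to the surface, was at 9.98 and 9.95 and Axn at 7.56 and 7.46. Wnt6 was at -4.31 and -5.20. In the Hippo pathway the kinase hpo was at 8.91 and 8.77, the kinase wts at 7.80 and 7.71, and the coactivator yki at 8.89 and 8.94.

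The JNK pathway was bright in 10 of 11 members. The kinase bsk was at 10.27 and 10.24 on its brightest probe set, and left the top 10% by the mean over its probe sets. The AP-1 subunit Jra, in the top 10% but outside it with ranks over genes or on replicate 1 alone, was at 9.33 and 9.31, its partner kay at 9.20 and 9.06 and the phosphatase puc, a target and inhibitor, at 9.04 and 9.08. The TNF homologue egr was at 8.50 and 8.55 and its receptor wgn at 8.67 and 8.58. The other receptor, grnd, was at 0.49 and 1.08.

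Ecdysone, the moulting steroid, is known to change the shape and growth of Kc cells. Its receptor subunit EcR was at 5.85 and 6.28 and the partner subunit usp at 6.58 and 6.45. MsrA, also named Eip71CD, a gene first described as induced by ecdysone, was at 10.13 and 9.98, and ImpL2, which binds insulin-like peptides, at 10.76 and 10.68. The targets Hr3 and Sgs3 were near or below 0, with Hr3 at -3.87 and -4.31 and Sgs3 at -5.97 and -5.67. None of 5 measured biosynthesis enzymes reached 5. The list of 11 targets held 2 genes in the top 10% (18.2%, against 12.6% of all genes). It held 4 near or below 0 (36.4%, close to the 32.2% of all genes).

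Transcription factor families were counted beside all genes, of which 12.6% lay in the top 10%, 49.1% at 5 or above and 32.2% near or below 0. Most families held both high and low members, and their lists are short. Of 10 insulator and chromatin factors all lay at 5 or above, with Cp190 at 10.04 and 9.90 and BEAF-32 at 9.93 and 9.78 in the top 10%. Among bZIP factors crc, the fly ATF4 of the amino acid and stress response, was at 11.85 and 11.76, maf-S at 10.52 and 10.33 and Irbp18 at 9.97 and 9.76. Of 18 bHLH factors 11 lay at 5 or above, 5 of them in the top 10% (3 with ranks over genes), and 2 near or below 0. Among them SREBP, the regulator of lipid synthesis, was at 10.51 and 10.47, tgo at 9.82 and 9.80 and Max at 9.76 and 9.56. The proneural gene ato was at -3.15 and -2.64 and the clock gene Clk at 1.44 and -2.09. Of 14 bZIP factors 11 lay at 5 or above and 2 near or below 0, among them tj at -2.38 and -0.69. Of 6 ETS factors 3 lay at 5 or above (50.0%, close to the share of all genes) and 3 near or below 0. Of 12 forkhead and Sox factors 5 lay at 5 or above (41.7%) and 6 near or below 0 (50.0%). Of 20 nuclear receptors 8 lay at 5 or above (40.0%) and 11 near or below 0 (55.0%). Hr78 was at 8.69 and 8.58, the fatty acid sensor Hnf4 at 8.28 and 8.23 and svp at -2.79 and 0.49.

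Within the GATA family, srp and GATAd, at 9.57 and 8.12, lay at 5 or above, and pnr, GATAe and grn, at -0.74, -4.68 and -5.01, near or below 0. In the Runt group the partner subunit Bgb was at 8.31 and 8.18, and lz, RunxB and Bro were near or below 0. Patterning genes were low, with 12 of 17 segmentation and Hox genes near or below 0. At 5 or above were hry, the pair-rule repressor hairy, at 9.85 and 9.88 and the Hox gene Dfd at 5.43 and 5.57. A further 3, Antp among them, were dim. The genes ftz, tll and Kr had means of -7.05, -6.72 and -4.16.

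Cell death genes were described in the same way. The measured inducers skl and grim had means near or below 0, with skl at -2.73 and 2.33, on both sides of 1, and grim at -0.55 and -0.92. The inhibitor Diap2 was at 8.65 and 8.57 and the inhibitor Bruce at 7.41 and 7.35. The caspases Dcp-1 and Dronc and the adaptor Dark had means of 8.13, 7.59 and 8.05, while Damm was at 2.07 and 1.66. The tumour suppressor p53 was at 9.57 and 9.56 on its brighter probe set and had a mean of 4.12 on the other, and it left the top 10% with ranks over genes too. Diap1, rpr, hid and Drice were not analysed here.

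The lists of G protein-coupled receptors and of ion channels were low. Of 20 G protein-coupled receptors 2 lay at 5 or above, mthl1 at 6.53 and 6.27 and mth at 6.24 and 6.28, and 12 near or below 0. Of 23 genes on the ion channel list, which also holds a calcium sensor, 5 lay at 5 or above. This sensor, Stim, was at 9.39 and 9.35. The store-operated channel Orai was at 7.49 and 7.55, the potassium channel sei at 7.29 and 7.25 and the store release channel Itpr at 6.66 and 6.86. The sodium channel para was at -2.41 and 0.40. Stim was the 1 member of the list in the top 10%, and 0 were with ranks over genes.

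Genes of the tiers differed in length and naming. The median genomic length was 2166 bases for 1514 genes of the top 10%, 2900 for the bright intermediate tier, 2314 for the dim tier and 1712 near or below 0. Genes known only by a number made up 21.6% of the top 10%, 35.1% of the bright intermediate tier, 50.9% of the dim tier and 56.7% near or below 0. Of the 1877 probe sets in the top 10%, 273 have no listed gene and 55 have several, and these are not named.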

How the data were processed

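RNA of 2 arrays of Mock cells at 2 h was described. Biotinylated cRNA was hybridised to Affymetrix Drosophila arrays, per the labels' protocols. The authors deposited 1 log2 value per probe set and array. Base 2 is inferred from the range of the values, and how they were summarised and scaled is not stated in the labels. The median of both arrays, controls included, was 2.38. Depth does not apply to arrays, and 2 replicates limit the precision.

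Of 18952 probe sets 183 controls were left out. Of the other 18769, 13647 had 1 gene in the platform annotation, 402 several and 4720 none listed. Symbols were updated by gene ID through the RefSeq table of Release 6 for 11894 of 11982 genes. Of 1489 listed symbols 1477 matched a gene and 1203 were measured, in 113 of 114 lists. Measured means that the gene had a probe set with 1 listed gene, so an unmeasured gene may still have probe sets on the array. Members and lists were chosen with earlier results of these data known, and the cytochrome P450 and ribosomal protein lists were corrected after values were seen.

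Means, tiers and counts were computed with Python 3.11.15, pandas 2.3.3 and NumPy 2.4.6, checked on simulated data. The genes named were the 30 highest, up to 5 highest and 3 near or below 0 per list, and the 5 least alike of the top 10%. All measured blood, JAK/STAT, dosage compensation, death inducer and death inhibitor genes were named. Ligands and receptors of the pathways were named in part only. List members set apart by their values were also named. Other genes were named after their values were seen. Alternatives were quantile normalization, each replicate alone, other probe set rules, ranks over genes and limits of 0 and 2.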

Additional observations from a re-analysis of the deposited data

How the results depend on the processing

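The start of the top 10% was 9.29, became 9.0 after quantile normalization over all 12 arrays, and ran from 9.24 to 9.33 with each replicate alone. Quantile normalization moved the level of 707 of 1210 genes by more than their SD over both arrays. The shift of the 248 list genes in the top 10% had a median of -0.25 and ran from -0.30 to -0.11, and 0 of them left it. The number of probe sets near or below 0 was 7781, against 7653 after quantile normalization and 7304 to 7305 with 1 replicate. Of the list genes, 248 were in the top 10%, and 215 to 250 under the 6 alternatives tried, lowest with ranks over 1 probe set per gene. The number near or below 0 was 400, and 330 to 489 under the 6 tried, with the limit at 0 and at 2. Ranking over genes moved the top 10% count of 14 of 113 lists, leaving 2 cell cycle regulators there, against 4, and took 33 list genes out of it, among them srp, bgcn, Tep4 and Stim. With the limit at 0, 7 G protein-coupled receptors were near or below it, against 12. With the dimmest probe set, 7 ecdysone targets were near or below 0, against 4, and p53 left the top 10%. Causes were not tested, apart from what each setting changes by construction. Of 111 genes with several probe sets and the brightest in the top 10%, 15 had the dimmest near or below 0. Low values limit the reading, since the tier of a dim probe set often differed between arrays. No paired analysis was possible because 1 group is described and the results come from no test.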

Other observations

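Detoxification genes divided by family. Of 34 glutathione S-transferase genes, which conjugate toxic compounds, 12 were in the top 10% and 24 lay at 5 or above. GstD1 was at 12.73 and 12.57, GstO3 at 12.39 and 12.24 and GstE6 at 12.16 and 12.0, while GstE14 was at -6.67 and -4.83. Of 81 cytochrome P450 genes, which oxidise toxins and steroids, 1 was in the top 10%, Cyp12d1-d at 9.96 and 9.74. That is 1.2%, against 12.6% of all genes and 35.3% of the transferases. Near or below 0 were 27 P450 genes (33.3%), close to the 32.2% of all genes. Near-identical copies can share probes, so the value of Cyp12d1-d is uncertain.

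Of 6 imaginal disc growth factor genes, secreted chitinase-like proteins, Idgf3 and Idgf6 were in the top 10%, with Idgf3 at 11.32 and 11.21 and Idgf6 at 10.68 and 10.53, and Idgf5 was dim at 4.40 and 4.04. A second probe set of Idgf3 had a mean of 6.26. Of 27 serpin genes, inhibitors of serine proteases, 0 were in the top 10%, against 12.6% of all genes. Near or below 0 were 13 (48.1%, against 32.2% of all genes), and Spn42Dc was at 9.01 and 8.99. Thioredoxin genes were high, with Trx2 at 11.34 and 11.20 and Trxr1 at 11.09 and 10.93, and Prx1 was at -1.02 and -1.25.

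Single genes stood apart in lists that were low. The odorant binding protein gene Obp49a was at 7.49 and 7.48, the 1 of 47 at 5 or above, and the accessory gland gene Acp95EF was at 6.25 and 6.56, the 1 of 15. All 4 measured photoreceptor genes were near or below 0. Probe sets of a gene could disagree by much: RpS29 had means of 12.69 and -3.04 on its brightest and dimmest probe set.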
